A study of Homo sapiens with 4 samples.

Results

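Transcript levels of 9 genes of the p53 pathway were compared in MM.1S cells, an established human multiple myeloma line, after treatment with JG342 or with its solvent DMSO. The genes are MDM2, CCNG1, ZMAT3, TP53INP1, SESN1, BTG2, FDXR, PHLDA3 and XPC. They were taken by symbol from a table of 16057 genes, in which all 9 were found, and they leave out p53 targets that the stress factor ATF4 is also known to drive. JG342 inhibits the chaperone HSP70 at an allosteric site and was given at 350 nM, and both groups were collected after 26 h. Each group had 2 libraries, described in the series as biological duplicates and numbered 1 and 2. Both groups shared the cell line and medium and differed in the agent alone, and no untreated cells without DMSO were analysed here. A single line was studied at a single dose and time.

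p53 is a transcription factor that is held low by the ubiquitin ligase MDM2 and its relative MDM4. When DNA is damaged or a cell is otherwise stressed, p53 escapes this control and binds pairs of short recognition sequences near its target genes. The targets halt the cell cycle, repair DNA, adjust metabolism or start cell death, and MDM2 is itself a target, which closes a feedback loop. JG342 was studied here for its action on HSP70, and the comparison shows which transcripts of the p53 programme differ after it.

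Promoters of the genes are shown first, because p53 acts on its targets by binding such sequences. The genes themselves were chosen by symbol and not by these sequences. RefSeq promoter windows (GRCh38.p14, 250 bases before to 50 bases after a transcription start) were matched by symbol for 7 of the 9 genes, with 15 windows in all since several genes have more than 1 start. PHLDA3 and TP53INP1 had no entry. The p53 consensus decamer, a palindrome of 10 letters that reads the same on both strands, was searched as a pair separated by 0 to 13 bases. The core C and core G of each decamer had to match, and at most 3 mismatches were allowed among the 20 letters. Such a pair was found in windows of 4 genes, in 5 of the 15 windows (33.3%), of which 2 overlapping MDM2 windows hold the same pair. It was found in 12.8% of all 35116 RefSeq windows and in 1663 of the 13869 windows of fitted genes. Among windows of the other p53 targets listed below, 29 of 124 held such a pair (23.4%). The best pair of each of these genes is printed from 5′ to 3′ on the gene's strand, with both decamers in capitals, within bases before the start that lie outside annotated untranslated exons. For ZMAT3 and FDXR the pair itself overlaps an untranslated exon of some transcripts, so it is printed alone.
MDM2, chr12:68808897-68809001, plus strand: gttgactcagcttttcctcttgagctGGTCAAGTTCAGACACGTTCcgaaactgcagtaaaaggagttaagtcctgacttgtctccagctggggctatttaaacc
SESN1, chr6:109008989-109009108, minus strand: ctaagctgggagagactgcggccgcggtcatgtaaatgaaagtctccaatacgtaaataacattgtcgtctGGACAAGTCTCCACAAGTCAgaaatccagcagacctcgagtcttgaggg
FDXR, chr17:74872996-74873025, minus strand: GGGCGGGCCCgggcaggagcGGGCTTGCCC
ZMAT3, chr3:179071867-179071892, minus strand: GGGCCTGCTCcgccaaGCACATGCGC

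The MDM2 pair has 2 mismatches and no spacer, lies in an intron of the longer transcripts and begins 94 bases before the internal start. This is the p53-responsive internal promoter known from the literature on MDM2. The SESN1 pair has 3 mismatches and no spacer, and begins 49 bases before an internal start, also in an intron of longer transcripts. The pairs of FDXR and ZMAT3 have 2 and 3 mismatches, with spacers of 10 and 6 bases. A single decamer with no mismatch was present in 1 window each of SESN1 and FDXR (13.3% of the 15 windows). The share was 6.63% of all windows and 10.5% of windows of the other listed p53 targets. In the windows of CCNG1, XPC and BTG2 no pair met the limit, which concerns these letters in these windows only. A match is a match of letters and was not measured as binding.

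The table gives each gene in TPM, the usual unit of transcript abundance, which is a share of the library's transcripts corrected for transcript length, so genes can be set beside each other. In bulk RNA of this kind, fewer cells that transcribe a gene and less RNA per cell cannot be told apart. With DMSO, the 9 genes spanned the range from low to very high expression. BTG2, an antiproliferative cofactor of mRNA deadenylation, was highest at 353 ± 20.9 TPM (SD, n = 2), which placed it at percentile 97.6 of all genes in the table. MDM2 followed at 116 ± 5.93 TPM and CCNG1 at 103 ± 3.98 TPM, both above percentile 90. SESN1 stood at 49.2 ± 3.83 TPM, TP53INP1 at 34.5 ± 6.89 TPM and XPC at 23.2 ± 0.91 TPM. PHLDA3 at 10.5 ± 3.59 TPM and FDXR at 8.54 ± 1.15 TPM had overlapping DMSO libraries and could not be ordered. ZMAT3 was lowest at 2.91 ± 0.0071 TPM, at percentile 34.1. Every other neighbouring pair in this order had DMSO libraries that did not overlap. TPM totals ran from 994463 to 994718. The JG342 libraries had fewer genes listed at 0 (1300 and 1118, against 1361 and 1418 with DMSO) and higher median levels over all genes (11.8 and 11.2 TPM against 10.5 and 10.8 TPM). An approximate depth derived from the steps between low values ran from 8600000 to 9580000 reads, with JG342 libraries at both ends.

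**Figure D1:**
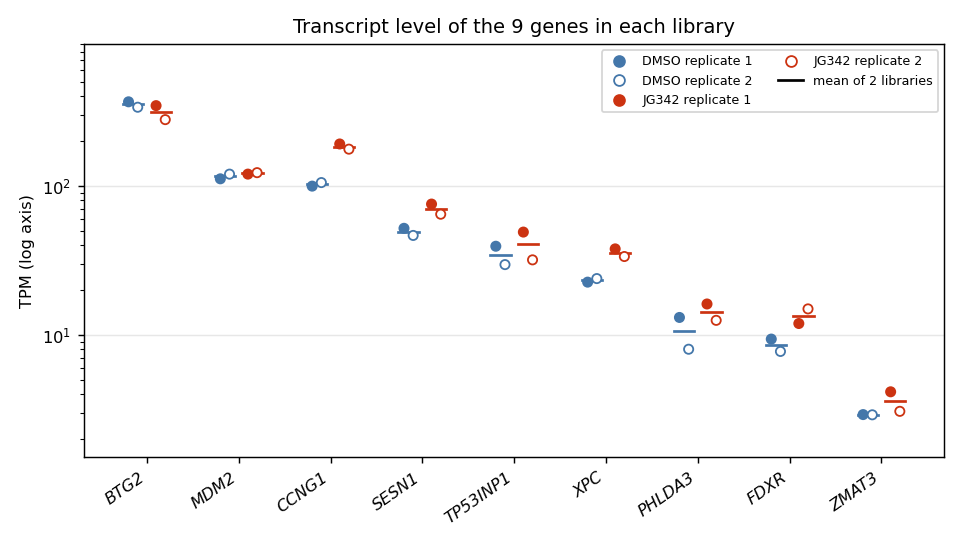
TPM of the 9 genes on a log axis, in order of the DMSO mean. Each circle is 1 library (blue DMSO, red JG342; filled replicate 1, open replicate 2) and each bar the mean of 2 libraries. Both JG342 circles of CCNG1, SESN1, XPC and FDXR lie above both DMSO circles, as do those of MDM2 and ZMAT3 by small margins (for MDM2, 112 and 120.1 TPM with DMSO, 120.2 and 123 TPM with JG342).

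CCNG1, XPC, SESN1 and FDXR rose after JG342, by 1.42 to 1.80 times in mean TPM. None of the 9 genes passed the test as lower, though BTG2 was at 0.89 times its DMSO mean. MDM2, the feedback ligase, was at 1.05 times its DMSO mean and did not pass the test, and ZMAT3, TP53INP1, PHLDA3 and BTG2 did not pass either. The test was limma on log2(TPM + 1) over 12042 genes whose mean reached 1 TPM, with a Benjamini-Hochberg adjusted p under 0.05, so 4 of the 9 genes passed as higher (44.4%) and 0 as lower. Over all fitted genes 18.4% passed, 10.8% as higher and 7.62% as lower. The 9 genes were chosen with earlier results of these data known. At an unadjusted limma p under 0.05 the counts for the 9 genes were the same, 4 higher and 0 lower, while over all 12042 fitted genes they were 2246 higher and 1798 lower. Their median log2 fold change was 0.43, against 0.03 over all fitted genes. All fitted genes that passed were split 58.7% higher. After the libraries were scaled to equal medians 18.0% of all fitted genes passed, 8.02% as higher, a split of 44.6% higher, and 3 of the 9 genes passed, all higher. Leaving out DMSO replicate 1 or DMSO replicate 2 left 1 of the 9 genes past the threshold, CCNG1, and leaving out either JG342 library left 3.

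**Figure D2:**
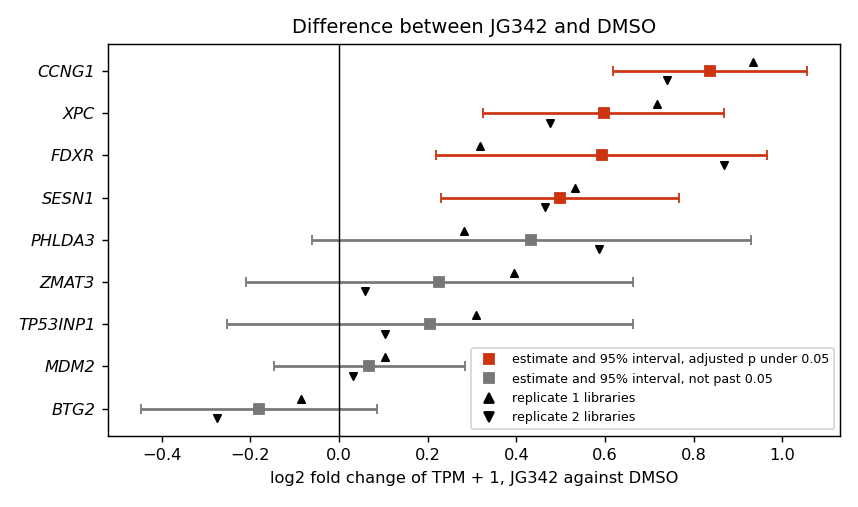
Log2 fold change of TPM + 1 between JG342 and DMSO for each gene. Squares are limma estimates with 95% intervals, red where the adjusted p was under 0.05, and triangles are the differences between the libraries numbered 1 (pointing up) and those numbered 2 (pointing down). The 4 red intervals lie above 0, and their estimates run from 0.50 for SESN1 to 0.84 for CCNG1. The BTG2 estimate of -0.18 is the only one below 0.

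Feedback control of p53 itself is the first role. MDM2 (NM_001145337) measured 112 and 120.1 TPM with DMSO, and the JG342 libraries measured 120.2 and 123 TPM. The highest DMSO value and the lowest JG342 value were nearly equal. Its log2 fold change was 0.07 ± 0.10 SE (limma adjusted p 0.659), with a 95% interval from -0.15 to 0.28. After median scaling the estimate was 0.000365. ZMAT3 (NM_022470), an RNA-binding zinc finger protein that acts on splicing and mRNA stability, measured 2.91 and 2.90 TPM with DMSO and 4.14 and 3.06 TPM with JG342. The JG342 libraries were both higher, but replicate 2 hardly so, and the log2 fold change of 0.23 ± 0.19 did not pass (limma adjusted p 0.445). It ran from 0.06 without JG342 replicate 1 to 0.40 without JG342 replicate 2.

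MDM4 (NM_001204171), the relative of MDM2 that blocks p53's activation domain, measured 33.5 and 32.1 TPM with DMSO and 45.4 and 40.7 TPM with JG342. It passed narrowly, at 0.38 ± 0.11 (limma adjusted p 0.0471), and it passed in none of the 4 fits with a library left out (limma adjusted p 0.0516 to 0.218). It also did not pass after median scaling (limma adjusted p 0.0729). PPM1D, a phosphatase that switches p53 signalling off and is itself a p53 target, measured 18.2 and 17.6 TPM with DMSO and 17.1 and 15.3 TPM with JG342, for a log2 fold change of -0.14 ± 0.13 (limma adjusted p 0.497). On a list of p53 and its regulators 18 genes were fitted, and 2 passed as higher and 2 as lower (11.1% each). Over all fitted genes the shares were 10.8% and 7.62%. The lower genes were the checkpoint kinases CHEK2 and CHEK1, which act upstream of p53. CHEK2 changed by -0.66 ± 0.12 and CHEK1 by -0.57 ± 0.12 (limma adjusted p 0.00686 and 0.0114). Without DMSO replicate 2 neither passed (limma adjusted p 0.0598 and 0.0949).

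Growth and cell cycle control is the role of CCNG1 and BTG2. CCNG1 (NM_004060), which encodes cyclin G1, a partner of protein phosphatase 2A that acts back on MDM2, measured 99.8 and 105 TPM in the DMSO libraries. In the JG342 libraries it measured 192 and 177 TPM, so that the groups were well separated. This was the largest change among the 9 genes, 1.80 times in mean TPM, with a log2 fold change of 0.84 ± 0.10 (limma adjusted p 0.00107) and a 95% interval from 0.62 to 1.06. It passed in all 13 alternative fits. BTG2 (NM_006763) measured 368 and 338 TPM with DMSO and 347 and 279 TPM with JG342. These libraries overlapped, since JG342 replicate 1 lay between the DMSO libraries, and the log2 fold change of -0.18 ± 0.12 did not pass (limma adjusted p 0.316; 95% interval -0.45 to 0.09). The BTG2 estimate ran from -0.34 without JG342 replicate 1 to -0.025 without JG342 replicate 2.

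DNA repair is represented by XPC (NM_001354726), the subunit that recognises distorted DNA in global nucleotide excision repair. XPC measured 22.6 and 23.9 TPM with DMSO and 37.8 and 33.6 TPM with JG342. Both JG342 libraries lay above both DMSO libraries, and the log2 fold change was 0.60 ± 0.12 (limma adjusted p 0.0108; 95% interval 0.33 to 0.87). Without DMSO replicate 1 or DMSO replicate 2 it did not pass (limma adjusted p 0.0676 and 0.0553), while the size of the change remained between 0.51 and 0.68. Its binding partners RAD23B and CETN2, the damage sensor DDB2 and the later excision repair genes were on a fixed list of 19 partners of the 9 genes' proteins, of which 17 were fitted. That list also holds partners of FDXR, the sestrins and BTG2. In it 0 genes passed as higher by limma, also at an unadjusted p under 0.05, and 1 passed as lower (5.88%). Over all fitted genes 10.8% passed as higher and 7.62% as lower. The lower gene was ERCC5, the nuclease that cuts on the 3′ side of the damage, at -0.55 ± 0.13 (limma adjusted p 0.0226). Without DMSO replicate 2 its adjusted p was 0.173, and it also did not pass without DMSO replicate 1 or JG342 replicate 2 (limma adjusted p 0.0578 and 0.0602). The median log2 fold change of the 17 partners was 0.08.

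Metabolism and the stress sensors are the roles of SESN1 and FDXR. SESN1 (NM_001199933) encodes sestrin 1, a protein that restrains mTORC1 through the GATOR complexes, and it measured 52.0 and 46.5 TPM with DMSO and 75.6 and 64.6 TPM with JG342. The groups did not overlap, and the log2 fold change was 0.50 ± 0.12 (limma adjusted p 0.0208; 95% interval 0.23 to 0.77). It did not pass without DMSO replicate 1, DMSO replicate 2 or JG342 replicate 1 (limma adjusted p 0.0523, 0.141 and 0.0937). FDXR (NM_001258012), ferredoxin reductase, passes electrons to the mitochondrial ferredoxins and measured 9.36 and 7.73 TPM with DMSO and 11.9 and 14.9 TPM with JG342. The groups were apart but the replicates differed. The change was 0.32 between the libraries numbered 1 and 0.87 between those numbered 2, and the log2 fold change was 0.59 ± 0.16 (limma adjusted p 0.0380). FDXR did not pass without DMSO replicate 1, DMSO replicate 2 or JG342 replicate 2 (limma adjusted p 0.0705, 0.221 and 0.145). After median scaling or quantile normalization it was not past the threshold either (limma adjusted p 0.0770 and 0.102). The ferredoxins that receive its electrons, FDX1 and FDX2, had log2 fold changes of 0.23 and -0.0024 and did not pass; both were named after their values were seen.

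Cell death is the role of PHLDA3 and TP53INP1. PHLDA3 (NM_012396), a small pleckstrin homology protein that competes with AKT for membrane lipids, measured 13.1 and 8.0 TPM with DMSO and 16.1 and 12.5 TPM with JG342. JG342 replicate 2 lay below DMSO replicate 1, so the libraries overlapped, and the log2 fold change of 0.43 ± 0.22 did not pass (limma adjusted p 0.199; 95% interval -0.06 to 0.93). With 1 library left out the PHLDA3 estimate ran from 0.11 (without DMSO replicate 2) to 0.76 (without DMSO replicate 1), and none of these fits passed. TP53INP1 (NM_001135733), a nuclear and autophagy protein that helps activate p53 towards cell death, measured 39.4 and 29.6 TPM with DMSO and 49.0 and 31.9 TPM with JG342. In both groups the library numbered 2 was lower, the libraries overlapped, and the log2 fold change of 0.21 ± 0.20 did not pass (limma adjusted p 0.514; 95% interval -0.25 to 0.66). Without JG342 replicate 1 its sign turned, to -0.0965. The intervals of these 2 genes include 0 and also the estimates of XPC and SESN1.

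In 6 of the 9 genes both JG342 libraries lay above both DMSO libraries, and in 0 both lay below. Among all fitted genes, 34.0% had both JG342 libraries above and 28.2% had both below, 62.1% together. The differences between libraries of 1 group were smaller than the treatment difference for CCNG1, XPC, SESN1 and FDXR, whereas for PHLDA3 and TP53INP1 the DMSO libraries alone differed by -0.65 and -0.40 on the log2 scale (replicate 2 against replicate 1). Over the 4 libraries, the genes with the nearest profiles among 9814 with a mean of at least 5 TPM were POLR3C and IMPACT for CCNG1, CFAP36 and EVC for SESN1, CLUAP1 and NPIPB5 for FDXR, and MARF1 and SAT2 for XPC. Their Euclidean distances on the centred log2(TPM + 1) scale were 0.0155 to 0.0666. The likeness rests on 4 libraries only.

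Relatives of the 9 genes were read from the same fit. Of 15 listed relatives 13 were fitted. Of these, 4 passed as higher (30.8%) and 2 as lower (15.4%), against 10.8% and 7.62% of all fitted genes. Among the higher genes, SESN2 and BTG1 are also counted in the target lists below, and MDM4 among the p53 regulators. In the sestrins, SESN2, which is also an ATF4 target, measured 16.6 and 24.8 TPM with DMSO and 138 and 139 TPM with JG342, for a log2 fold change of 2.72 ± 0.17 (limma adjusted p 4.27e-05). With DMSO, SESN1 was higher than SESN2 in both libraries, and with JG342 SESN2 was higher than SESN1 in both. SESN3 was low, at 4.16 and 5.10 TPM with DMSO and 3.67 and 3.08 TPM with JG342, and did not pass (-0.36 ± 0.18, limma adjusted p 0.202).

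The BTG and TOB family holds antiproliferative proteins that bind the CCR4-NOT deadenylase. BTG1 rose from 73.4 and 77.8 TPM to 134 and 137 TPM, by 0.83 ± 0.10 (limma adjusted p 0.00102), whereas TOB1 fell from 52.6 and 56.5 TPM to 30.5 and 32.2 TPM, a change of -0.78 ± 0.11 (limma adjusted p 0.00252). Both passed with each library left out in turn. BTG2, BTG3 and TOB2 did not pass, with log2 fold changes of -0.18, -0.30 and -0.11. Cyclin G2, encoded by CCNG2, was far below CCNG1, at 7.46 and 9.77 TPM with DMSO and 11.7 TPM in both JG342 libraries, and its change of 0.41 ± 0.16 did not pass (limma adjusted p 0.108). PHLDA1 fell from 16.4 and 18.6 TPM to 8.09 and 12.2 TPM (-0.75 ± 0.19, limma adjusted p 0.0251), though not when DMSO replicate 1, DMSO replicate 2 or JG342 replicate 1 was left out (limma adjusted p 0.0705, 0.148 and 0.0858). PHLDA2 was below 0.5 TPM with DMSO and listed at 0 with JG342, and was not fitted.

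ZMAT1, a zinc finger relative of ZMAT3, rose from 6.64 and 4.87 TPM to 16.9 and 14.7 TPM, by 1.32 ± 0.17 (limma adjusted p 0.00192), and passed in all 4 fits with a library left out. ZMAT2, a splicing factor subunit, and ZMAT5 changed by -0.25 and 0.40 and did not pass. TP53INP2 measured 6.67 and 5.02 TPM with DMSO and 7.55 and 6.22 TPM with JG342, and its change of 0.21 ± 0.18 did not pass (limma adjusted p 0.458). The differences between family members were described and not tested against each other.

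**Figure D3:**
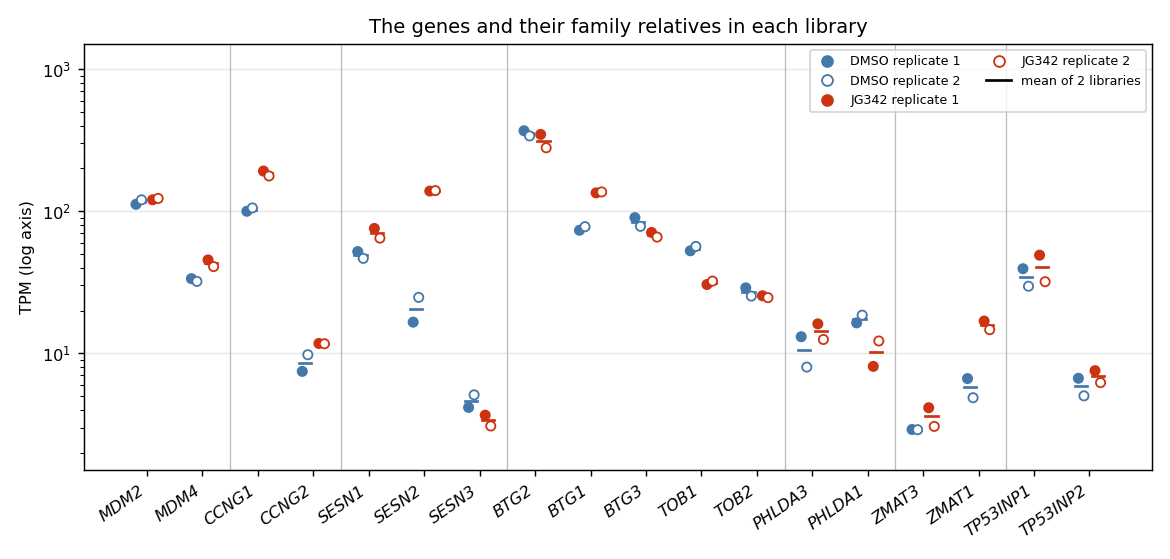
TPM on a log axis for 7 families, separated by grey lines, each opening with its gene from the 9. Circles and bars are as in the plot of the 9 genes. SESN2 moves from below SESN1 with DMSO to above it with JG342, and BTG1 and TOB1 move in opposite directions.

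The listed p53 targets that are also driven by the integrated stress response, which acts through ATF4 and CHOP, all rose. Of these, 9 of 9 passed as higher, against 10.8% of all fitted genes, with a median log2 fold change of 1.77. GDF15 was at 0.15 and 0.31 TPM with DMSO and met the filter of a mean of 1 TPM only through its JG342 libraries. The filter itself therefore favoured a higher call for GDF15, and its place in this count is no separate evidence. The list was chosen with earlier results of these data known. These targets were set beside the 9 genes studied here because they share p53 as a regulator. The changes ran from 0.55 for CDKN1A to 3.30 for GDF15, and 8 of the 9 exceeded the change of CCNG1. CDKN1A (NM_000389), which encodes the cell cycle inhibitor p21 and is among the best-known p53 targets, had the smallest change of the list. It measured 111 and 95.2 TPM with DMSO and 172 and 132 TPM with JG342, for a log2 fold change of 0.55 ± 0.14 (limma adjusted p 0.0257). It did not pass without DMSO replicate 2 or JG342 replicate 1 (limma adjusted p 0.165 and 0.107) or after median scaling (limma adjusted p 0.0558).

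TNFRSF10B, a death receptor for TRAIL, rose by 1.77 ± 0.11 (limma adjusted p 4.97e-05), and the proapoptotic BH3 genes PMAIP1 and BBC3 rose by 1.63 and 1.44. ATF3, a stress transcription factor, rose by 2.22 and the mTORC1 inhibitor gene DDIT4 by 1.78. GADD45A, a growth arrest gene, rose by 1.01. GDF15, a secreted stress cytokine, was at 0.15 and 0.31 TPM with DMSO and at 9.14 and 13.48 TPM with JG342. These 7 genes and SESN2 kept an adjusted p under 0.05 in each fit with 1 library left out. Between the DMSO libraries the list already differed, with replicate 2 higher than replicate 1 by a median of 0.21 on the log2 scale, whereas the 9 genes had a median difference of -0.12.

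Beyond these, 88 further genes described as p53 targets were listed by role, of which 82 were fitted. In these 82 genes, 13 passed as higher (15.9%) and 6 as lower (7.32%), against 10.8% and 7.62% of all fitted genes, and the median log2 fold change was 0.0016. The counts fell to 9 in all without DMSO replicate 1 (5 higher, 4 lower) and to 10 without DMSO replicate 2 (8 higher, 2 lower). The other 63 did not pass, among them the apoptosis genes BAX (0.30), FAS (-0.26) and AEN (-0.02) and the repair genes DDB2 (0.17) and POLH (-0.05), which were named after their values were seen.

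In the cell death list of 15, 3 of 13 fitted genes were higher and 1 was lower. EDA2R, a receptor of the TNF receptor family, measured 10.1 and 7.49 TPM with DMSO and 31.8 and 22.6 TPM with JG342 and rose by 1.52 ± 0.19 (limma adjusted p 0.00172), also with each library left out. TP53I3, a quinone oxidoreductase, rose by 1.02 ± 0.21 (limma adjusted p 0.0122; 0.0748 without DMSO replicate 1). CASP8 passed at 0.37 but in none of the fits with a library left out (limma adjusted p 0.0539 to 0.128). PERP, a membrane protein of desmosomes, was lower at -0.44, and lost the call without DMSO replicate 1, DMSO replicate 2 or JG342 replicate 2 (limma adjusted p 0.0707, 0.138 and 0.0867). BAX, which opens the mitochondrial outer membrane, measured 133 and 140.4 TPM with DMSO and 173 and 164 TPM with JG342, just short of the threshold (limma adjusted p 0.0565).

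Of the 12 fitted genes of cell cycle and growth, BTG1 and PRDM1 passed as higher and SFN and TGFA as lower. SFN, the p53-induced checkpoint protein 14-3-3 sigma, went against the direction of CCNG1: it measured 9.14 and 8.26 TPM with DMSO and 3.31 and 2.17 TPM with JG342, a change of -1.39 ± 0.19 (limma adjusted p 0.00252) that held with each library left out. TGFA, a growth factor, changed by -0.65, and without DMSO replicate 1, DMSO replicate 2 or JG342 replicate 2 it did not pass (limma adjusted p 0.130, 0.139 and 0.122). PRDM1, a plasma cell regulator, passed at 0.36 and in none of the fits with a library left out (limma adjusted p 0.0534 to 0.266). In DNA repair, 1 of 8 genes passed, RPS27L at 0.49 ± 0.13 (limma adjusted p 0.0340; 0.227 without DMSO replicate 2 and 0.127 without JG342 replicate 1). In metabolism and autophagy, 1 of 12 passed, DRAM1, a lysosomal membrane protein, at 1.07 ± 0.26 (limma adjusted p 0.0213). DRAM1 did not pass without DMSO replicate 1, DMSO replicate 2 or JG342 replicate 1 (limma adjusted p 0.0581, 0.113 and 0.0765).

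Among the 37 fitted genes of signalling, transport and other roles, 6 were higher and 3 lower. SYTL1, a synaptotagmin-like protein of vesicle transport, had the largest change of the 82 genes, from 3.37 and 3.12 TPM to 65.2 and 62.2 TPM (3.93 ± 0.13, limma adjusted p 3.08e-06). ORAI3, a calcium channel subunit, rose by 1.02, and the ligand gene ICOSLG changed by -1.03, both also with each library left out. PLTP and RNF19B were higher at 0.98 and 0.66, and LIMK2 and TRAF4 were lower at -0.61 and -0.63. PLTP did not pass without DMSO replicate 1 (limma adjusted p 0.0614), nor LIMK2 without DMSO replicate 2 (limma adjusted p 0.0931). RNF19B did not pass without DMSO replicate 1, DMSO replicate 2 or JG342 replicate 1 (limma adjusted p 0.0566, 0.0820 and 0.0554), nor TRAF4 without DMSO replicate 2 or JG342 replicate 1 (limma adjusted p 0.204 and 0.110).

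**Figure D4:**
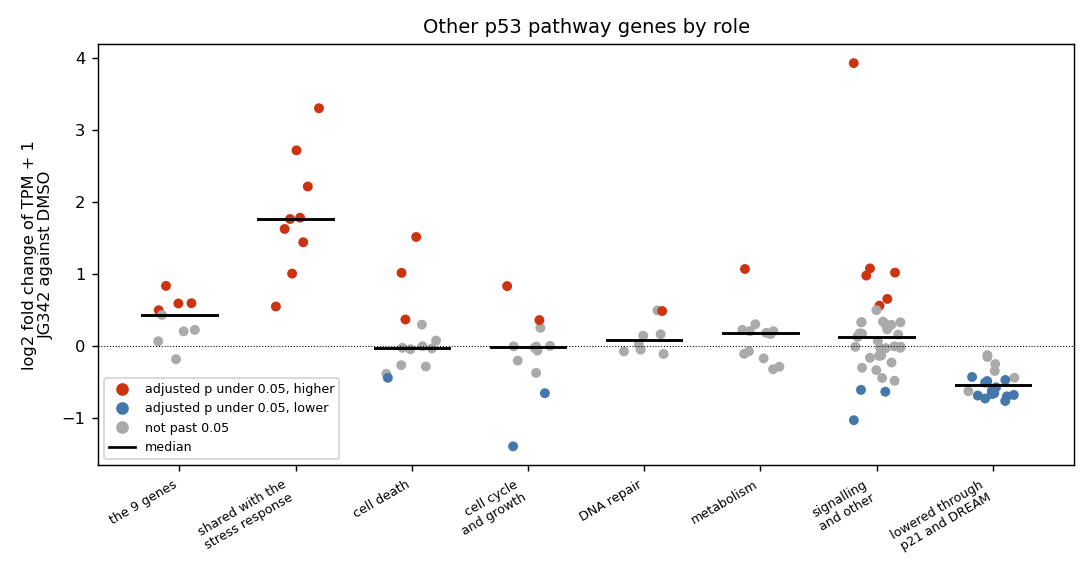
Log2 fold change of TPM + 1 (JG342 against DMSO) for the 9 genes and the other listed genes of the pathway, 1 point per fitted gene, grouped by role; points are spread sideways for visibility. Red and blue mark an adjusted p under 0.05, higher and lower, and black bars are medians. The 9 genes have a median of 0.43, the targets shared with the stress response 1.77, the genes lowered through p21 and DREAM -0.54, and the medians of the 5 other role lists run from -0.0219 to 0.177, with single genes far from them such as SYTL1 at 3.93.

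Genes that p53 lowers indirectly, through p21 and the DREAM repressor complex, were lower. All 20 listed genes had a negative log2 fold change, with a median of -0.54, and 14 passed as lower (70.0%, against 7.62% of all fitted genes) and 0 as higher, also at an unadjusted limma p under 0.05. This list, too, was chosen with earlier results of these data known. TOP2A, a topoisomerase of dividing cells, measured 139 and 149 TPM with DMSO and 89.7 and 90.6 TPM with JG342 (-0.67 ± 0.10, limma adjusted p 0.00276). BUB1, CDK1 and FOXM1, a checkpoint kinase, the mitotic kinase and a mitotic transcription factor, changed by -0.68, -0.70 and -0.57. FOXM1 did not pass without DMSO replicate 2 (limma adjusted p 0.0591), while TOP2A, BUB1 and CDK1 passed with each library left out. The count was 4 without DMSO replicate 2, 9 without JG342 replicate 1, 11 without DMSO replicate 1 and 16 without JG342 replicate 2. Such genes also fall when cells divide less for other reasons, and the part of p53 in their level was not tested.

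The plasma cell identity of the libraries was checked with 10 markers. All 10 were expressed, among them SDC1 at 243 to 379 TPM and IRF4 at 353 to 615 TPM. Of the 10, 2 passed as higher and 3 as lower, and their summed level was 15159 and 14890 TPM with DMSO and 10937 and 10232 TPM with JG342, most of it JCHAIN. The B cell marker PAX5 was near 0 (0.03 to 0.26 TPM). Of 5 listed T cell markers 4 were in the table, with a summed level of 9.55 and 13.1 TPM with DMSO and 14.8 and 11.3 TPM with JG342. CD4 and CD8A were at or near 0, and CD3G was higher after JG342 (3.99 and 5.10 against 9.34 and 7.92 TPM; limma adjusted p 0.0152). CD3E, the other fitted T cell marker, measured 5.49 and 7.70 TPM with DMSO and 5.26 and 3.21 TPM with JG342, both lower, and did not pass (-0.55, limma adjusted p 0.132). Myeloid markers summed to 37.4 to 46.2 TPM, nearly all of it LYZ, and stromal and epithelial markers to 3.13 to 4.74 TPM. Only 1 gene of each of these lists was fitted, LYZ and PECAM1, and neither passed. The part of these markers in the results was not tested. No other gene's transcript matched the longest protein-coding transcript of any of the 9 genes at 95% identity over 20% of its length. The search used GENCODE release 29. Among the relatives, it matched ZMAT5 to CABP7 over 44.6% of the length and TOB2 to AC007228.1 over 29.2%. Reads of these relatives may therefore be shared with those genes. Exons of another gene on the same strand overlap those of MDM2 and PHLDA3, so their reads may be shared between genes. Exons of antisense genes overlap those of MDM2, SESN1 and XPC, and whether the counting used strand is not given in the sources used here, so reads of those genes and their antisense partners may not be told apart.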

How the data were processed

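RNA of 4 MM.1S libraries (2 with DMSO, 2 with JG342) was sequenced on a BGISEQ-500 instrument, per the labels' protocols. HISAT2 2.0.4, Bowtie2 2.2.5 and RSEM 1.2.12 are named in the submitters' processing notes, without roles; genome build, annotation and filters are not given in the sources used here. The authors deposited 1 value per gene and library, taken to be TPM because each library sums to 994463 to 994718, near the total that defines the unit. TPM keeps no depth, so no counting intervals are given, and count models were not used. Values were transformed to log2(TPM + 1), which understates changes of low genes, and 12042 genes whose mean reached 1 TPM were fitted with limma 3.58.1 in R 4.3.3 (lmFit, eBayes with a mean-variance trend, treatment as the only term; 2 residual and 6.89 prior degrees of freedom). Tests were two-sided, with Benjamini-Hochberg adjustment over all fitted genes and a threshold of 0.05. The fit was also run on simulated data with 200 changed genes. It recovered 41% of log2 changes of 0.5, 98% of changes of 1 and 99.5% of changes of 2. False calls made up 3.53%, 3.92% and 7.01% of the calls. An exact permutation test of 2 against 2 libraries cannot go below 0.333 and was not used. The approximate depth used transcript lengths of GENCODE release 29 for 15231 genes. Near copies were searched with BLAST 2.17.0. The 9 genes and the lists were chosen with earlier results of these data known. Most named genes follow a rule: the 9 genes, MDM4, PPM1D, all relatives, all targets shared with the stress response, up to 4 genes with the smallest p in each direction of every other list, and the 2 nearest profiles of each passing gene. Outside this rule, BAX, FAS, AEN, DDB2, POLH, FDX1 and FDX2 were named after their values were seen. RAD23B and CETN2 were named as examples of their list, and cell type markers were named from their own lists. Alternatives were another pseudocount, other filters, scalings and variance priors, a replicate block, and each library left out. Some listed genes are not reported here.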

Additional observations from a re-analysis of the deposited data

How the results depend on the processing

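The count of all fitted genes past the threshold was 2221 and that of the 9 genes 4. With no filter on low values these counts were 828 and 1, and without a mean-variance trend 2 of the 9 genes passed; the cause was not tested. Leaving out each library in turn gave 767 to 1825 genes and 1 to 3 of the 9; these fits have fewer samples, and the lone library of a group is assumed to vary like the others. The labels give both groups the replicate numbers 1 and 2. Deviations of same-numbered libraries correlated across 12042 genes (Pearson r 0.275, Spearman rho 0.304), and the labels' descriptions of same-numbered libraries begin alike, but no label says what that beginning means or states a pairing, so whether the block is the better model is not known. Blocking on that number, 4207 genes passed and 5 of the 9 (PHLDA3 in addition, limma adjusted p 0.0123). That fit had 1 residual degree of freedom and infinite prior degrees of freedom, so each gene's variance came from the mean-variance trend alone. With the block and median scaling 3985 genes passed and 5 of the 9 (BTG2 in addition, as lower at -0.25, limma adjusted p 0.0420), and with the block without a trend 3008 and 5. TP53INP1 changed sign without JG342 replicate 1, with a range from -0.0965 to 0.508 over the fits leaving out 1 library. Of the 82 further targets by role 19 passed, but 6 with no filter, 11 without a trend, 32 with the block and 31 with the block and median scaling; of the 20 DREAM genes 14 passed, but 4 with no filter and 8 without a trend; of the relatives 6 passed, but 10 with the block. Of the 42 named genes past the threshold, 21 stayed past it in all 4 fits with a library left out and 3 in none. Low genes such as ZMAT3 and FDXR tend to rest on fewer reads, but the part of depth in their spread was not tested. With 2 libraries a group a change missing the threshold is not shown to be absent.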
